A study of Mus musculus with 9 samples.

Results

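Matrix glycoproteins and proteoglycans are secreted or cell surface proteins that fill and organise the space between cells. A list of 47 such genes was read by gene symbol from an RNA sequencing table of the mouse embryonic cortex, and all 47 were among its 18820 genes. Roles known from textbooks divided the list into 9 genes of neural matrix, 23 of connective tissue matrix, 6 matricellular genes and 9 cell surface proteoglycans, and the neural and connective tissue classes were set against each other by genotype. The cortex came from C57BL/6J embryos at embryonic day 18.5, in 3 groups of 3 libraries: wild type (WT), Cyfip2 heterozygote (Het) and Cyfip2 knockout (KO). The Cyfip2 protein belongs to the WAVE complex, which drives branched actin assembly. The labels name no treatment and leave the mutant allele undescribed. Whether each library is a different embryo is not stated either. Het and KO each held libraries of both sexes, read from a Y-linked gene, and so came from different embryos in part. The p-values reflect only the spread between libraries, which may be partly technical.

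The matrix of the developing brain differs from that of other organs. It is built around hyaluronan, a long sugar chain made at the cell membrane, to which the chondroitin sulfate proteoglycans of the lectican family (versican, neurocan, brevican and aggrecan) bind, held there by link proteins and crosslinked by tenascins. Connective tissue matrix, which in the brain is found in the meninges and around blood vessels, is made mainly by fibroblasts and mural cells, and consists of collagen fibrils coated with small leucine-rich proteoglycans, fibronectin, and elastic microfibrils of fibrillin. Matricellular proteins such as SPARC and the thrombospondins modulate cell adhesion without being structural, and glypicans and syndecans carry heparan sulfate chains that bind growth factors at the cell surface.

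Values are normalized counts, gene counts that the authors divided by a size factor for each library. Totals per library lay between 36.0 and 38.6 M (M, mega). With the most common low value of each library taken as the worth of a single read, the depth was about 29.5 M reads (KO replicate 1) to 54.1 M reads (WT replicate 2). Cyfip2 normalized counts, which check the labels, were 10169, 10344 and 11174 in WT, 8969, 9779 and 9882 in Het, and 7900.3, 7522 and 8255 in KO. No KO library reached the lowest Het or WT library, and the KO level was 74.7% of WT from the log2 fold change, but the adjusted p was 0.678 (limma, Benjamini-Hochberg). Markers of cortical neurons summed to between 157187 and 211697 normalized counts in the 9 libraries, and to 178914 to 185057 in WT. The sum was highest in Het replicate 3 (211697) and KO replicate 3 (209089). It was lowest in KO replicate 1 (157187) and KO replicate 2 (162461). Het replicate 3 stood apart: its 12 meningeal fibroblast markers summed to 515 normalized counts, against 12324 to 29828 in the other 8 libraries, and each of the 12 was lowest there. The highest counts on that list are those of the collagens Col1a1, Col1a2 and Col3a1, which are themselves connective tissue matrix genes. WT replicate 3, Het replicate 1, KO replicate 1 and KO replicate 2 held olfactory bulb RNA (Cdhr1 above 1000 normalized counts). Of the other 2 markers on that list Tbx21 was also higher in these 4 libraries (48.5 to 84.2, against 2.38 to 10 normalized counts elsewhere), whereas Doc2g did not separate them (610.2 to 682 against 646 to 745). Het replicate 1, KO replicate 1 and KO replicate 2 held no Ddx3y, a Y-linked gene, and were taken as female.

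Of the 47 genes, 46 had a mean of at least 10 normalized counts over the 9 libraries and were tested. The exception was Hapln4, a brain link protein, at 4.84 to 15.8 normalized counts. Levels were compared between genes as normalized counts per kilobase of the longest coding transcript, averaged over the 9 libraries. On that scale Gpc2, a glypican of developing neurons, stood at 6266 and Sdc3, the syndecan of neural tissue, at 3614. Sparc had 3165, Sparcl1 3098 and Ncan 2737 normalized counts per kilobase. Among the connective tissue genes, Mfap2, a small microfibril protein, was at 1824, Fn1 at 1069.8 and Bgn at 762 normalized counts per kilobase. Acan, Hapln1 and Hapln4 lay between 2.6 and 3.6 on the same scale. Per length, neurocan and hevin RNA thus far exceeded aggrecan, the lectican typical of mature perineuronal nets, and the link proteins Hapln1 and Hapln4.

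**Figure D1:**
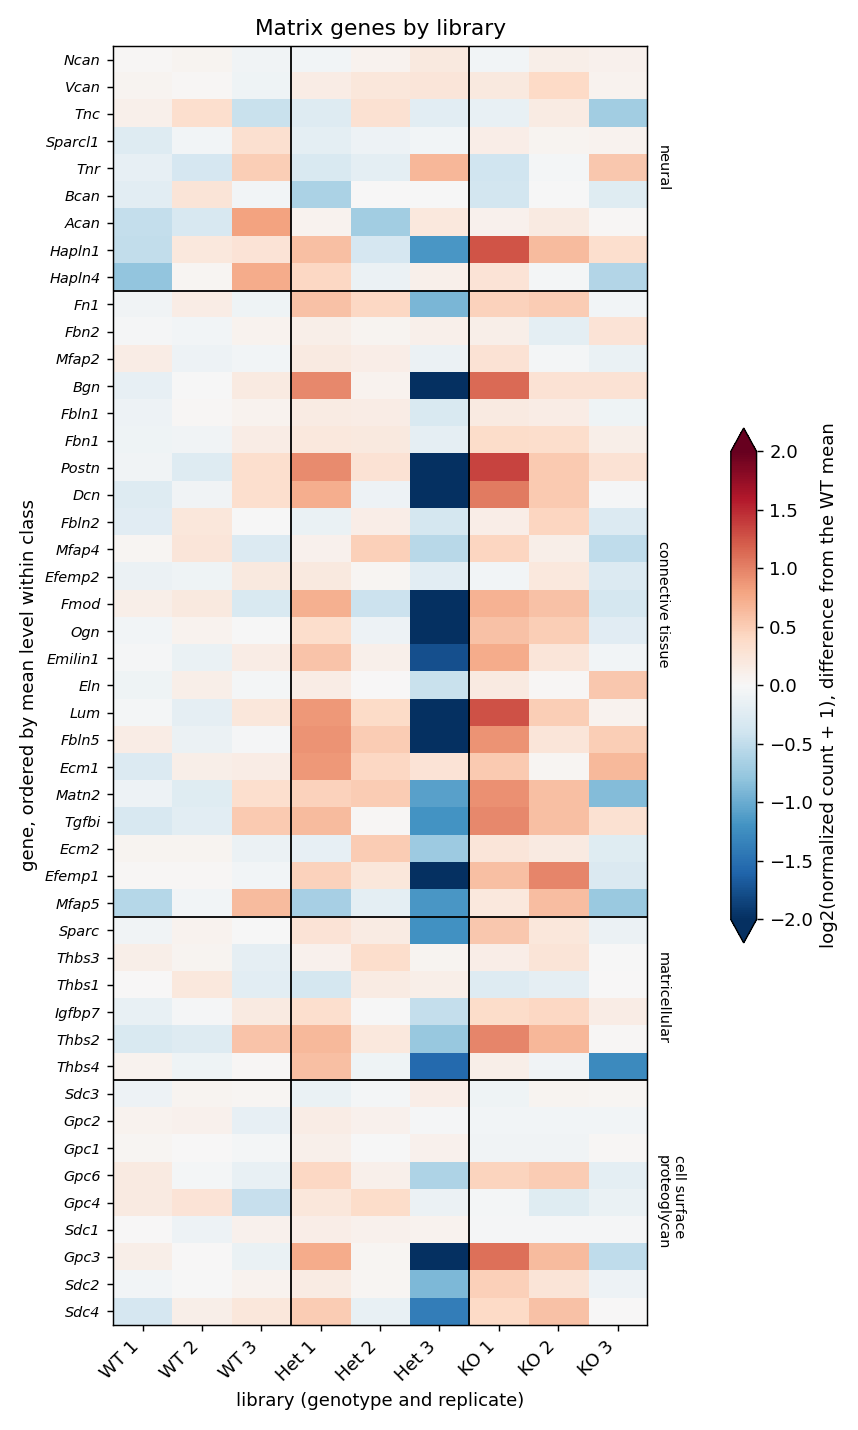
Difference of log2(normalized count + 1) from the WT mean for the 47 genes (rows, by class and mean level) in the 9 libraries (columns). The column of Het replicate 3 is blue through most of the connective tissue block, where 19 of 23 genes had their lowest value, and pale through most of the neural block.

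Among the neural genes, Ncan (ENSMUSG00000002341) encodes neurocan, a lectican secreted by neurons. Its normalized counts were 19499, 19776 and 18172 in WT, 18367, 20137 and 21978 in Het, and 18364, 20666 and 20292 in KO. The groups overlapped, and Het replicate 3 was the highest library. Vcan (ENSMUSG00000021614) encodes versican, a lectican found in embryonic brain and also in loose connective tissue, with 12650.1, 12316 and 11479.7 in WT, 13407, 14199 and 14431 in Het, and 13823, 16009.7 and 12754 in KO. All 6 Het and KO libraries lay above all 3 WT libraries. Vcan was the 1 of 46 genes with this order, against 0.319% of the 15069 genes tested. Tnc, the tenascin of radial glia and astrocytes, had 13977, 16474 and 9596 in WT, 10927, 16072 and 11265 in Het, and 11688, 14531 and 8046 in KO. Its groups overlapped, and replicate 2 was the highest library of each genotype.

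Tnr encodes tenascin-R, which binds and crosslinks lecticans. Its values were 4891, 4342 and 7717 in WT, 4408, 4802 and 8676 in Het, and 4161, 5322 and 7943 in KO. In each genotype replicate 3 was highest, and all 3 such libraries lay above the other 6, an order found in 9.26% of all genes tested and in 1 of the 46. Sparcl1 encodes hevin, an astrocyte protein that promotes synapse formation, and had 7186, 8211 and 10637 in WT, 7462, 7954 and 8286 in Het, and 9379, 8856 and 8949.6 in KO. The 3 KO values lay within the WT range and above all Het values. Bcan, brevican, a lectican of the brain, read 1411, 1946 and 1569.8 in WT, 1053, 1627 and 1619.8 in Het, and 1265, 1622 and 1370.1 in KO, with overlapping groups. Hapln1, the link protein that locks lecticans onto hyaluronan, was near the filter, at 8.21, 14 and 14.6 in WT, 18.7, 9.26 and 4.74 in Het, and 29.8, 19.2 and 15.3 in KO. Its KO libraries lay above its WT libraries, at counts where 1 read was worth 0.68 to 1.22 normalized counts. Acan lay between 15.5 and 45.5.

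**Figure D2:**
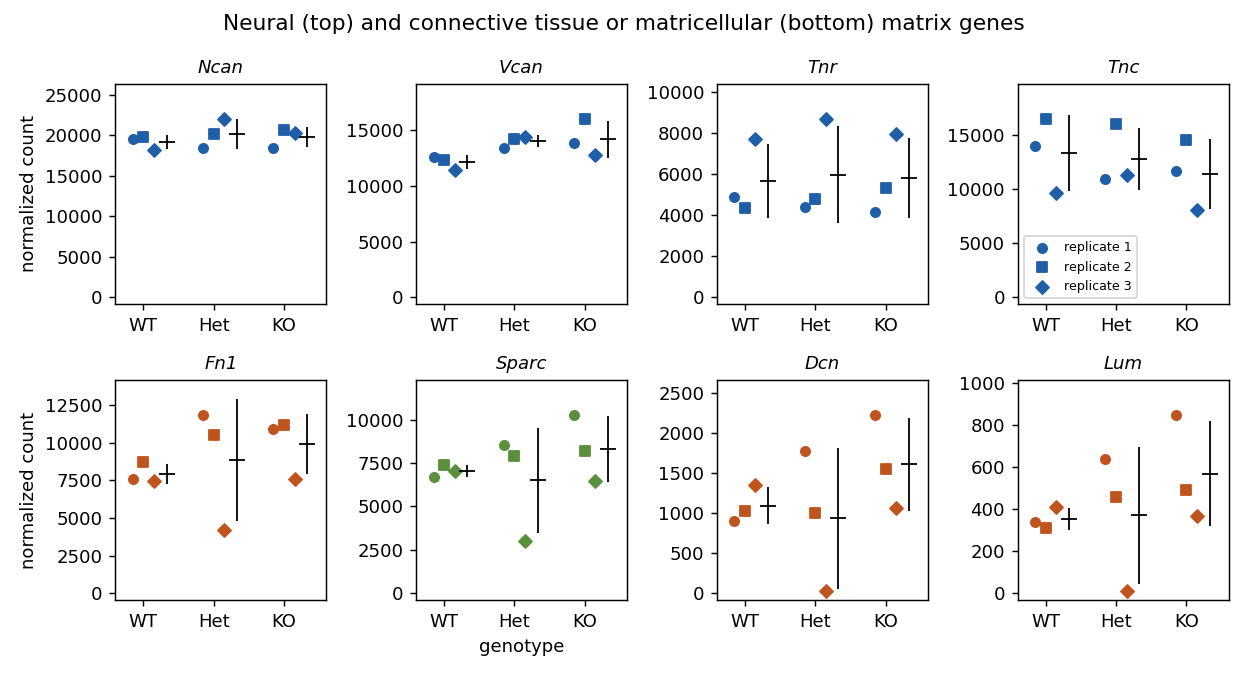
Normalized counts of 4 neural genes (top) and 4 connective tissue or matricellular genes (bottom) by genotype, with 1 symbol per library and the mean ± SD of 3 libraries beside them. In the bottom row the diamond of Het replicate 3 lies under every other library, at 4204 for Fn1, 3028 for Sparc, 23.9 for Dcn and 10.2 for Lum.

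Fn1 encodes fibronectin, which links cells to collagen, and had the highest mean count among the connective tissue genes. Its normalized counts were 7573, 8730.1 and 7491 in WT, 11842, 10495 and 4204 in Het, and 10914, 11214 and 7596 in KO. Het replicate 3 was the lowest library, and Het replicates 1 and 2 lay above all WT libraries. Fbn2, the fibrillin of embryonic microfibrils, had 3974, 3884 and 4253 in WT, 4373, 4208 and 4319.5 in Het, and 4369, 3530.4 and 4865 in KO. Fbn1, the other fibrillin, had 1317, 1327 and 1539 in WT, 1613, 1590.1 and 1222 in Het, and 1786, 1767 and 1507 in KO. The fibrillins overlapped between genotypes, and Het replicate 3 was at 102% of the median of the other 8 libraries for Fbn2 and at 78.1% for Fbn1.

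Mfap2, which sits on fibrillin microfibrils, read 2116, 1775 and 1826 in WT, 2155, 2088 and 1757 in Het, and 2320.2, 1845 and 1736 in KO. Fbln1, a fibulin of basement membranes and elastic fibres, read 1613, 1755 and 1801 in WT, 1927, 1915 and 1396 in Het, and 1958, 1905 and 1618 in KO. For both, Het replicate 1 and KO replicate 1 were the 2 highest libraries. Eln encodes elastin and had 426, 488 and 441 in WT, 498, 454 and 329.9 in Het, and 512, 459 and 654 in KO, with KO replicate 3 highest and Het replicate 3 lowest.

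The small leucine-rich proteoglycans Dcn (decorin), Lum (lumican), Fmod (fibromodulin), Bgn (biglycan) and Ogn (osteoglycin) bind collagen or growth factors in the fibril coat. Dcn (ENSMUSG00000019929) normalized counts were 898, 1033 and 1355 in WT, 1779, 1001 and 23.9 in Het, and 2227, 1553 and 1065 in KO. Lum (ENSMUSG00000036446) had 339.6, 308 and 412 in WT, 641, 459.6 and 10.2 in Het, and 847, 493 and 368 in KO. Fmod (ENSMUSG00000041559) had 647, 684 and 485 in WT, 976, 442 and 26.4 in Het, and 972, 903 and 468 in KO. In all 3, Het replicate 3 lay far below every other library while Het replicates 1 and 2 did not. For Dcn the Het mean was 935 ± 879 (SD, n = 3) against 1095 ± 235 in WT and 1615 ± 583 in KO. Bgn had 1357, 1514 and 1739 in WT, 2967, 1601 and 333 in Het, and 3339, 1868 and 1864 in KO. All KO libraries lay above all WT libraries, with Het replicate 1 and KO replicate 1 highest and Het replicate 3 lowest. Ogn was at 57.7 in Het replicate 3 and from 491 to 870.4 elsewhere.

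Tgfbi encodes a collagen-binding adhesion protein induced by TGF-beta, and had 107, 116 and 193 in WT, 209, 137 and 58.1 in Het, and 261, 205 and 167 in KO. Ecm1 (ENSMUSG00000028108), a secreted glycoprotein of skin and vessels, had 158, 207 and 211 in WT, 348, 253 and 230.1 in Het, and 275, 196 and 299 in KO. Tgfbi overlapped between all groups, whereas the 3 Het values of Ecm1 lay above the 3 WT values, Het replicate 3 included. Postn, periostin, which supports collagen assembly, had 1010.5, 890.2 and 1344 in WT, 2062, 1303 and 123 in Het, and 2721, 1527 and 1296 in KO, and was lowest in Het replicate 3. Efemp1, a fibulin, was at 9.3 normalized counts in Het replicate 3 and elsewhere from 100.4 to 242. Het replicate 3 was also the lowest library for Emilin1, an elastin-associated glycoprotein (143 against 441 to 814). Fbln5, needed for elastic fibre assembly, had 232, 193 and 205 in WT, 390, 298 and 46.3 in Het, and 393, 248 and 296 in KO. Its KO libraries lay above its WT libraries, and Het replicate 3 was again lowest. The remaining members were the fibulins Fbln2 and Efemp2, the microfibril-associated Mfap4 and Mfap5, the matrilin Matn2, and Ecm2. They had lowest values from 8.63 (Mfap5) to 906 (Fbln2) and highest values from 32.5 to 1567.

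Sparc encodes osteonectin, a collagen-binding matricellular protein also made by endothelium and glia. Its normalized counts were 6679, 7403 and 7031 in WT, 8535, 7912 and 3028 in Het, and 10246, 8206 and 6471 in KO. Het replicate 3 was lowest, and the WT libraries lay within a narrow range. Igfbp7, a secreted protein of brain endothelium, had 714, 784 and 896 in WT, 1002, 794 and 568 in Het, and 1023, 1065 and 885 in KO, again with Het replicate 3 lowest. Of the thrombospondins, Thbs1 had 2007, 2316 and 1732 in WT, 1574, 2254 and 2180.1 in Het, and 1668, 1760.5 and 2012 in KO. Thbs2 had 143, 148 and 262 in WT, 279, 205 and 105 in Het, and 347, 282 and 180.2 in KO. Both are trimeric glycoproteins that inhibit angiogenesis and promote synapse formation, and Het replicate 3 was the lowest library for Thbs2 and not for Thbs1. Thbs3, a pentameric form, had 4879, 4659.7 and 3946 in WT, 4754, 5710.1 and 4658 in Het, and 4896, 5360.2 and 4432 in KO, with replicate 3 lowest in each genotype. Thbs4, also pentameric, lay between 11.8 and 56.5.

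Sdc3 normalized counts were 16854, 18605 and 18577 in WT, 16388, 17585 and 19645 in Het, and 16929, 18632 and 18542 in KO. Gpc2 had 16977, 17186 and 14370.3 in WT, 17806, 17204 and 15834 in Het, and 15521, 15448 and 15486 in KO. Gpc1, the glypican of neurons and vessels, had 6135, 5970.1 and 5797 in WT, 6416, 5947 and 6301 in Het, and 5693, 5671 and 6058 in KO. These 3 genes varied little: the lowest and highest library of Gpc1 differed by 0.18 on the log2 scale. Gpc6, a glypican that promotes synapse formation when released by astrocytes, had 955, 819 and 755 in WT, 1114, 897 and 545 in Het, and 1145, 1193 and 731 in KO. Gpc4, its close relative, had 942, 1002 and 605 in WT, 971, 1065 and 761 in Het, and 809, 700 and 754 in KO. Both overlapped between genotypes, and for Gpc6 the 3 replicates numbered 3 were the lowest libraries. Sdc1, known best from epithelia, had 793, 731 and 839 in WT, 859, 831 and 825 in Het, and 772, 775 and 770.3 in KO, its KO values lying under all Het values. Sdc2, the syndecan of mesenchymal cells and dendritic spines, had 451, 462 and 488 in WT, 524, 477 and 249 in Het, and 653, 558 and 433 in KO, with Het replicate 3 lowest. Gpc3, a glypican of mesenchyme that restrains growth, had 619, 571 and 517 in WT, 951, 580.4 and 53.6 in Het, and 1218, 876 and 400.2 in KO and followed the connective tissue genes. Sdc4, a syndecan of focal adhesions, lay between 27.4 and 110.4.

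Within the Het group, the classes parted in replicate 3. Its log2 ratio to the median of the other 8 libraries had a median of 0.13 over the 8 neural genes tested (110% of the other libraries) and of -1.19 over the 23 connective tissue genes (43.7%). The median over all genes tested was 0.01, and 7.22% of them had a ratio below -1. Of the connective tissue genes, 22 of 23 had a negative ratio and 13 a ratio below -1. The median was -0.90 over the 6 matricellular genes and -0.20 over the 9 surface proteoglycans. Dcn was at 1.97% of the other libraries, Lum at 2.35% and Fmod at 3.97%, while Tnr was at 179%, Thbs1 at 116% and Ncan at 112%. The neural class had 1 exception below -1, Hapln1, at 4.74 normalized counts.

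**Figure D3:**
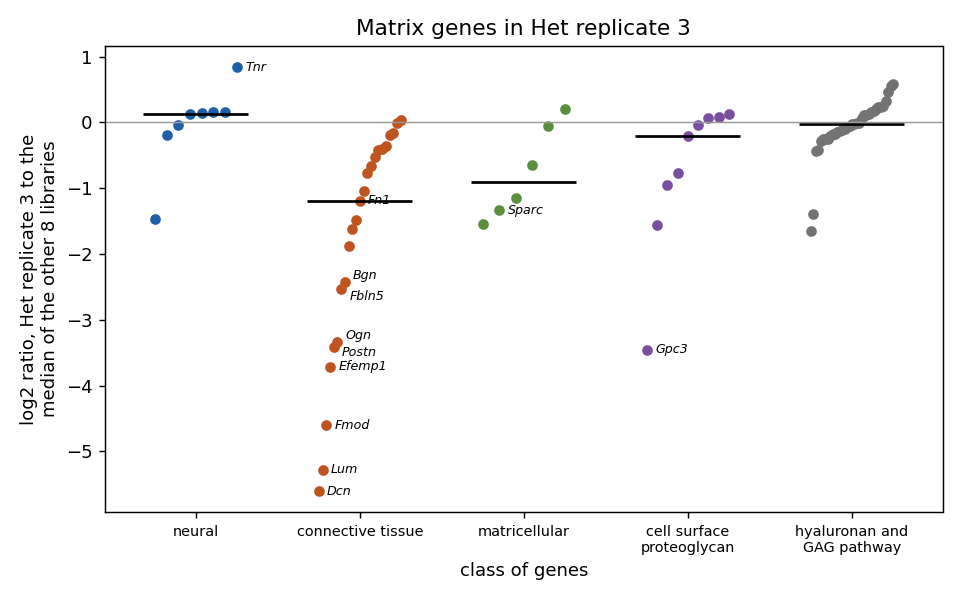
Log2 ratio of Het replicate 3 to the median of the other 8 libraries for each tested gene, by class and for the hyaluronan and glycosaminoglycan (GAG) pathway, with the class median as a bar. Connective tissue genes reach from -5.60 (Dcn) to 0.03, with a median of -1.19, while 7 of the 8 neural genes lie at -0.19 or above.

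Het replicate 3 was the lowest of the 9 libraries for 28 of the 46 genes tested (19 of 23 connective tissue, 4 of 6 matricellular, 4 of 9 surface and 1 of 8 neural genes), against 18.8% of all genes. It was the highest library for 3 of 46 (Ncan, Tnr and Sdc3), against 16.8%. It lay under 25% of the lowest other library for 9 of 46, against 1.53%. These were Bgn, Dcn, Efemp1, Fbln5, Fmod, Lum, Ogn and Postn, all connective tissue genes, and Gpc3. Of the cell markers, 12 of 12 meningeal fibroblast, 10 of 10 endothelial and 9 of 10 pericyte and smooth muscle genes were lowest in Het replicate 3. The same held for 1 of 10 cortical neuron and 1 of 10 radial glia and astrocyte genes, against 18.8% of all genes. Summed normalized counts of the 12 meningeal fibroblast markers, of which the collagens were highest, ran from 12324 to 15496 in WT, from 515 to 24808 in Het and from 14822 to 29828 in KO. The 10 pericyte and smooth muscle markers summed to 7090 in Het replicate 3 and to at least 10029 elsewhere, and the 10 endothelial markers to 6015 and at least 10522. No marker of these 3 lists was at 0 in any library. The 7 choroid plexus markers summed to 70.1 in Het replicate 3 and to between 372 and 12144 elsewhere, with 5 of the 7 lowest there and Folr1 at 0 in Het replicate 1. Erythroid markers, in contrast, summed to 63225 in Het replicate 3, within the 26833 to 98648 of the other libraries. The cortical neuron sum was highest there (211697). Radial glia and astrocyte markers summed to 36104 in Het replicate 3 and to less, 30536, in KO replicate 3. The part of these markers in the result was not tested, and fewer cells of a type and less RNA per cell cannot be told apart in bulk samples.

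At the other end, Het replicate 1 and KO replicate 1 were the 2 highest libraries for 13 of the 46 genes, against 8.77% of all genes. Among them were 10 connective tissue genes (Bgn, Dcn, Emilin1, Fbln1, Fbln5, Fmod, Lum, Mfap2, Postn and Tgfbi), with Sparc, Thbs4 and Gpc3, and no neural gene. Both libraries were female, held olfactory bulb RNA and had the highest meningeal fibroblast sums, 24808 and 29828 normalized counts. They were also the 2 highest libraries for the sums of endothelial markers (14275 and 17034), of pericyte and smooth muscle markers (12880 and 14245) and of the 5 erythroid markers (79467 and 98648, against at most 68642 elsewhere). KO replicate 2 was also female and held olfactory bulb RNA, but had a fibroblast sum of 18004 and the lowest erythroid sum, 26833. The part of these differences in the result was not tested. All 3 replicates numbered 3 lay below the other 6 libraries for 5 of the 46 genes (Efemp1, Gpc3, Gpc6, Mfap4 and Thbs3), against 7.33% of all genes.

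The promoters of 4 genes from both sides of this contrast are shown to let their letters be compared: Postn and Fmod, which were low in Het replicate 3, and Ncan and Vcan, which were not. Each line gives the 150 bases before the RefSeq transcript start in GRCm38.p6, 5′ to 3′ on the gene's strand. Capitals mark the motifs searched, on both strands: the TATA motif, written TATAAA, the CCAAT motif, and the GC box motif, written GGGCGG. A motif on the opposite strand appears as its reverse complement.
Postn chr3:54360957-54361106 (plus strand): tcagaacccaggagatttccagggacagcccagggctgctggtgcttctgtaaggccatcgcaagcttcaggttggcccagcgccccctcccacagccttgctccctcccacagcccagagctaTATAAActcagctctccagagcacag
Fmod chr1:134037104-134037253 (plus strand): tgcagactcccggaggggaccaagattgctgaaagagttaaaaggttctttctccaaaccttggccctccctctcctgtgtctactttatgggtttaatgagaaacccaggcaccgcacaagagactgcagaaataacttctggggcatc
Ncan chr8:70120845-70120994 (minus strand): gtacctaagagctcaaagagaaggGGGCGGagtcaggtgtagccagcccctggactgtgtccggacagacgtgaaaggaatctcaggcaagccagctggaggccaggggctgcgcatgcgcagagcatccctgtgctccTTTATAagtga
Vcan chr13:89742513-89742662 (minus strand): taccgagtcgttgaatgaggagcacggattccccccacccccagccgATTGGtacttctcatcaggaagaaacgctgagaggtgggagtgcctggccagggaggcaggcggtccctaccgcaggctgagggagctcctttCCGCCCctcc
Postn held the TATA motif with its first base at -26, near the usual distance of a TATA box, and Fmod none of the 3 motifs. Ncan held the GC box motif at -126 and the TATA motif on the opposite strand at -11. The GENCODE start of Ncan lies 29 bases upstream of this RefSeq start, so its TATA motif falls inside the GENCODE transcript. Vcan held the CCAAT motif at -103 and the GC box motif at -10, both on the opposite strand. The motifs do not overlap one another.

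Over the 250 bases before the start, 25 of the tested members had a RefSeq promoter within 100 bases of their GENCODE start. The TATA motif was found in 5 of the 25 (20%; 3 of 12 connective tissue genes) and in 6.26% of the 9155 tested genes with such a promoter. The CCAAT motif was found in 7 (28%) against 37.3%, and the GC box motif in 18 (72%) against 60%. The median number of CpG pairs in the window was 10 for the members, 7 for the connective tissue genes and 16 for all genes. These are letter matches, and no binding was measured.

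The comparison of KO with WT asks how homozygous mutation of Cyfip2 relates to matrix RNA. No member passed the threshold of 0.05 on the adjusted p (limma, Benjamini-Hochberg over 15069 genes), and of all genes tested 0% did. The medians of the classes nevertheless lay apart. The log2 fold change had a median of 0.28 over the 23 connective tissue genes, of 0.06 over the 8 neural genes, of 0.17 over the 6 matricellular genes, of 0.00 over the 9 surface proteoglycans and of 0.00 over all genes tested. It was above 0 for 22 of 23 connective tissue genes, 6 of 8 neural, 4 of 6 matricellular and 5 of 9 surface genes, 37 of 46 in all, against 48.4% of all genes. Members of a class share libraries and cells, so these counts are a description with no test. Sums of vessel cell markers were also higher in KO, while single markers such as Cldn5, Tek and Rgs5 overlapped between KO and WT. The endothelial markers summed to 12027 to 17034 normalized counts in KO and to 10522 to 11201 in WT. The pericyte and smooth muscle markers summed to 10798 to 14245 and 10029 to 10661, so their ranges nearly met. All KO libraries lay above all WT libraries in both sums. Of single genes 3.17% had this order, a share that does not apply to sums of several genes. The groups overlapped in the sums of meningeal fibroblast, cortical neuron, and radial glia and astrocyte markers (the last 30536 to 52351 in KO, 38811 to 50386 in WT). In KO replicate 3 the endothelial sum was 12027, while the connective tissue median was -0.06 from the WT mean. The part of these markers in the class medians was not tested. With sex as a covariate the connective tissue median was -0.25, but no WT library was female. The sex effect was thus estimated within Het and KO alone, with Het replicate 3 included.

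At an unadjusted p under 0.05 there was 1 member higher in KO, Vcan, and 0 lower (limma), against 0.544% and 0.637% of all genes. KO libraries lay above all WT libraries for 4 of the 46 (Bgn, Fbln5, Hapln1 and Vcan), against 3.17%, and below them for 0, against 3.3%. Vcan had a log2 fold change of 0.22 ± 0.08 (SE), or 116% of WT, with a 95% interval from 0.03 to 0.41, unadjusted p = 0.0284 and adjusted p = 1.00 (limma). Without KO replicate 2 the value was 0.13. The other neural genes of smallest p were Hapln1, at 0.74 ± 0.50 (interval -0.39 to 1.88), and Bcan, at -0.21 ± 0.19 (interval -0.64 to 0.23). Both intervals span 0.

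Of the connective tissue genes, Fbn1 had a KO mean of 1686 ± 156 against 1394 ± 126 normalized counts in WT (SD, n = 3), a log2 fold change of 0.27 ± 0.12 with an interval from -0.01 to 0.56 (limma, unadjusted p = 0.0555, adjusted p = 1.00). Ecm1 stood at 0.41 ± 0.22 (interval -0.10 to 0.91) and Tgfbi at 0.62 ± 0.44 (interval -0.38 to 1.63). Among matricellular genes Igfbp7 was at 0.31 ± 0.19, Thbs2 at 0.55 ± 0.40 and Thbs3 at 0.12 ± 0.11. The surface proteoglycans of smallest p were Gpc6 at 0.25 ± 0.27, Sdc2 at 0.21 ± 0.27 and Gpc1 at -0.04 ± 0.05, whose interval of -0.15 to 0.08 is among the narrowest of the list. With sex as a covariate the values of Thbs2, Gpc6 and Sdc2 were below 0, at -0.019, -0.197 and -0.149. That covariate was estimated within Het and KO alone, with Het replicate 3 included. The unadjusted p of these genes after Fbn1 ran from 0.1 (Ecm1) to 0.457 (Gpc1), and each adjusted p was 1.00 (limma).

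**Figure D4:**
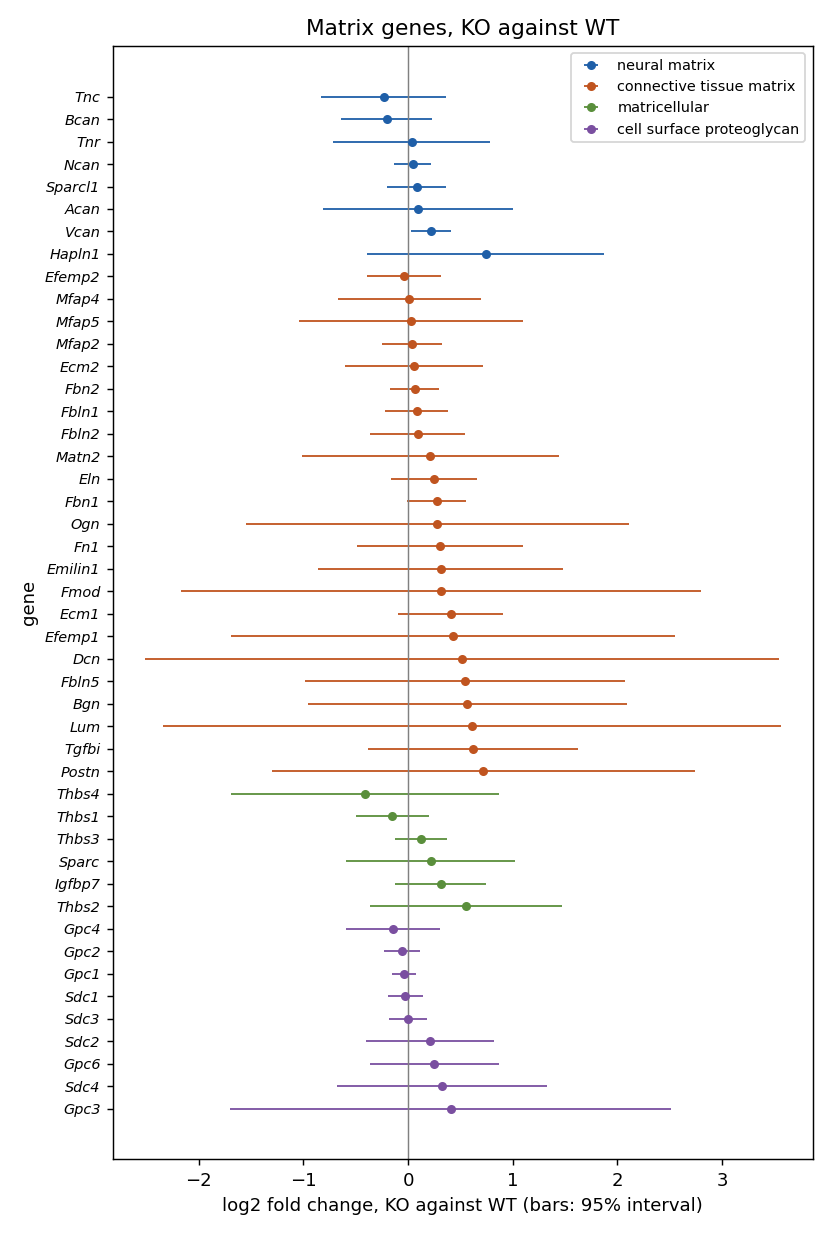
Log2 fold change of KO against WT with its 95% interval (limma, all 9 libraries) for the 46 tested genes, coloured by class. Connective tissue points lie right of 0 for 22 of 23 genes, but their intervals, which carry the spread of Het replicate 3, span 0, and of all members the interval of Vcan alone does not.

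The genotypes shared 1 estimate of the spread, so Het replicate 3 entered the intervals of KO against WT as well. The median SD of log2 values within genotypes was 0.60 for connective tissue genes, 0.33 for neural genes and 0.15 for all genes, and without that library it was 0.31, 0.34 and 0.14. Without it, KO and WT means stayed as they were and 5 members had an unadjusted p under 0.05, all higher in KO, against 1.31% of all genes higher and 0.677% lower. These were Fbn1 at 0.27 ± 0.09, Fbln5 at 0.55 ± 0.19, Vcan at 0.22 ± 0.09, Igfbp7 at 0.31 ± 0.13 and Postn at 0.72 ± 0.30 (log2 fold change ± SE). Their unadjusted p ran from 0.017 (Fbn1) to 0.0408 (Postn), and each adjusted p was 1.00 (limma, Benjamini-Hochberg).

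The connective tissue median in KO against WT moved with single KO libraries, and was 0.13 without KO replicate 1 and 0.48 without KO replicate 3. It also differed with olfactory bulb RNA and sex, both read from the data, since the labels name no batch. Among libraries without olfactory bulb RNA (KO replicate 3 against WT replicates 1 and 2) it was -0.06, with 11 of 23 genes above 0. Among those with olfactory bulb RNA (KO replicates 1 and 2 against WT replicate 3) it was 0.34, with 20 of 23. Among males (KO replicate 3 against all WT) it was -0.06, with 9 of 23, and no WT library was female. The median difference of connective tissue genes from the WT mean was 0.53 and 0.35 in the 2 female KO libraries and -0.06 in the male one. In the same subsets the neural median was 0.13, -0.02 and 0.07. Vcan stood at 0.03 without and 0.37 with olfactory bulb RNA, and Fbn1 at 0.19 and 0.21. Sex, olfactory bulb RNA and genotype cannot be fully told apart in these libraries.

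**Figure D5:**
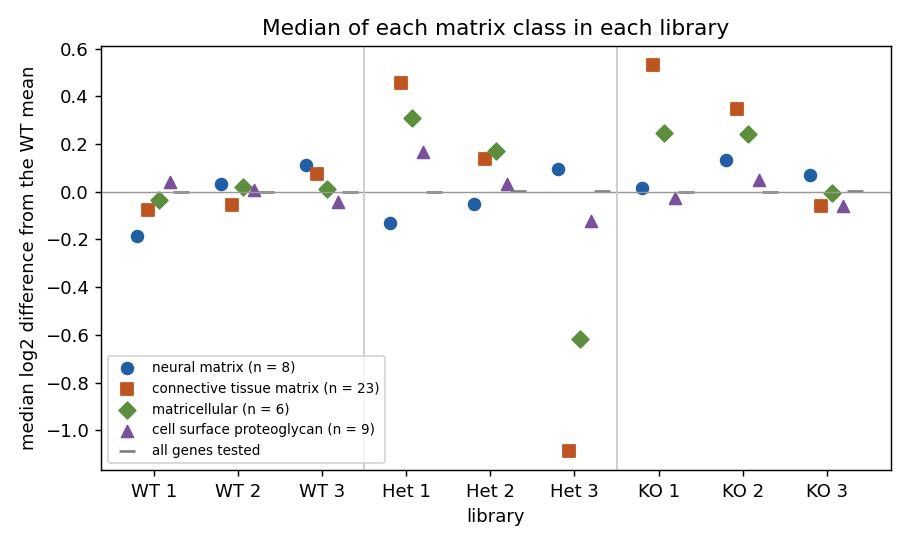
Median difference from the WT mean on the log2 scale for each class of matrix genes and for all genes tested, in each library. The connective tissue square moves from 0.53 in KO replicate 1 to -1.09 in Het replicate 3, while the neural circle stays between -0.18 and 0.13.

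In each library the connective tissue median minus the neural median gave the contrast of both kinds of matrix directly. It was 0.11, -0.09 and -0.03 in WT, 0.58, 0.19 and -1.18 in Het, and 0.52, 0.21 and -0.13 in KO (log2). The WT libraries lay close together, and the Het and KO libraries spread around them. In both mutant genotypes the library numbered 1 was highest and that numbered 3 lowest. Het libraries spanned both ends, and the 3 genotypes overlapped. The neural medians behind these values were -0.18, 0.03 and 0.11 in WT, -0.13, -0.05 and 0.10 in Het, and 0.01, 0.13 and 0.07 in KO, a narrower range than that of the connective tissue medians. Single neural genes were not steadier outside Het replicate 3. Without that library the median SD within genotypes was 0.34 for neural and 0.31 for connective tissue genes.

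The comparison of Het with WT asks the same of a single mutant copy. No member passed the adjusted threshold, and of all genes 0% did. At an unadjusted p under 0.05 there were 2 members higher, Vcan and Ecm1, and 0 lower (limma), against 0.962% and 0.644% of all genes. The same 2 genes had Het libraries above all WT libraries, against 3.36%, and 0 members had them below, against 3.31%. Vcan stood at 0.21 ± 0.08, or 115% of WT (interval 0.02 to 0.40, unadjusted p = 0.0365, adjusted p = 1.00, limma). Ecm1 had a Het mean of 277 ± 62.6 against 192 ± 29.6 in WT (SD, n = 3), a log2 fold change of 0.52 ± 0.22 (interval 0.01 to 1.02, unadjusted p = 0.0452, adjusted p = 1.00, limma). Thbs3, at 0.17 ± 0.11, and Sdc1, at 0.09 ± 0.07, had the smallest unadjusted p of their classes, 0.172 and 0.234 (limma).

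The sign of the connective tissue class in this comparison depended on 1 library. With all 9 libraries the median log2 fold change was -0.13, with 8 of 23 genes above 0, and without Het replicate 3 it was 0.28, with 22 of 23. The neural median was -0.09 and -0.07, with 3 and 4 of 8 above 0. Over all members 17 of 46 lay above 0 with all libraries, against 46.2% of all genes, and 39 of 46 without Het replicate 3, against 50.5%. Without it, 3 members had an unadjusted p under 0.05, all higher (limma), against 1.15% of all genes higher and 1.26% lower. These were Fbln5 at 0.70 ± 0.21, Fn1 at 0.49 ± 0.16 and Ecm1 at 0.64 ± 0.24, with unadjusted p from 0.0113 to 0.0271 and adjusted p of 1.00 (limma). Vcan was then at 0.18 ± 0.10, with an unadjusted p of 0.091 and an adjusted p of 1.00 (limma). Within such subsets the connective tissue median was -0.29 without olfactory bulb RNA (2 Het against 2 WT libraries, 4 of 23 above 0) and 0.35 with it (1 against 1, 20 of 23), and -0.29 among males (2 against 3, 4 of 23).

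KO against Het compares the mutant genotypes. No member passed the adjusted threshold, and of all genes 0% did. None had an unadjusted p under 0.05 in either direction (limma), against 1.42% of all genes higher and 2.17% lower. KO libraries lay above all Het libraries for 1 of 46 genes, Sparcl1, against 3.15%, and below them for 2, Gpc2 and Sdc1, against 4.68%. By the smallest p in each class, Hapln1 stood at 1.04 ± 0.50 (interval -0.09 to 2.17), Eln at 0.35 ± 0.18 (-0.06 to 0.76), Igfbp7 at 0.36 ± 0.19 (-0.07 to 0.80) and Gpc1 at -0.10 ± 0.05 (-0.21 to 0.02). Their unadjusted p ran from 0.0676 to 0.0897, with an adjusted p of 0.942 (limma).

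The connective tissue median of KO against Het was 0.35, with 19 of 23 genes above 0, and -0.02, with 11 of 23, without Het replicate 3. The neural median was 0.01 and 0.17, with 5 and 7 of 8. Over all members 32 of 46 lay above 0, against 50.4% of all genes, and 24 of 46 without that library, against 50%. Without it 0 members had an unadjusted p under 0.05 (limma), against 1.77% of all genes higher and 1.55% lower. The values of Gpc1 and Hapln1 without it were -0.09 ± 0.06 and 0.60 ± 0.46. Within such subsets the connective tissue median was 0.31 without olfactory bulb RNA, where Het replicate 3 is 1 of the 2 Het libraries, and 0.00 with it. KO against WT and Het against WT share the WT libraries, so their values for a gene such as Vcan are not independent.

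The wider pathway was read from 36 genes that make, modify or bind hyaluronan and glycosaminoglycans, of which 35 were tested and Has1, a hyaluronan synthase, was not. In none of the 3 comparisons did any of the 35 pass the adjusted threshold, and 0 had an unadjusted p under 0.05 in KO against WT or Het against WT (limma). The libraries of KO lay above those of WT for 1 of 35, Xylt2, against 3.17% of all genes, and those of Het below those of WT for 1, Extl3, a glycosyltransferase of heparan sulfate synthesis, against 3.31%. In KO against Het, Ptprz1, a receptor phosphatase that carries chondroitin sulfate, was the 1 gene under 0.05, at -0.21 ± 0.08 (log2 fold change ± SE; unadjusted p = 0.0278, adjusted p = 0.942, limma), and its KO libraries lay below its Het libraries. These counts of 1 in 35, or 2.86%, compare with 2.17% and 4.68% of all genes. Ptprz1 had 24651, 22786 and 20398 in WT, 22994, 25163 and 26350.4 in Het, and 21399, 21151 and 21852 in KO, with Het replicate 3 highest. Without that library it stood at -0.16 ± 0.09 (unadjusted p = 0.0905, adjusted p = 1.00, limma) and was no longer under 0.05. Has3, a hyaluronan synthase, then had an unadjusted p under 0.05, lower in Het than in WT at -0.63 ± 0.26 and higher in KO than in Het at 0.62 ± 0.26, 1 of 35 in each, against 1.26% and 1.77% of all genes (limma, adjusted p = 1.00 and 1.00). Extl3, Ptprz1 and Has3 were named after their values were seen. The median log2 fold change was 0.01 in KO against WT, 0.00 in Het against WT and 0.02 in KO against Het, and the median ratio of Het replicate 3 was -0.03. Xylt2, a xylosyltransferase that starts the sugar chains, had 720.2, 682 and 665 in WT, 764, 716 and 660 in Het, and 747, 759.5 and 834 in KO, and its KO libraries lay above its WT libraries. Its log2 fold change was 0.18 ± 0.08 (limma, unadjusted p = 0.0666, adjusted p = 1.00). Hapln2, a link protein of nodes of Ranvier, had 10.5, 9.56 and 15.1 in WT, 20, 11.4 and 16.6 in Het, and 19.1, 19.1 and 12.7 in KO and a log2 fold change ± SE of 0.50 ± 0.34 in KO against WT. Gpc5, a glypican, had 14, 28.7 and 89.4 in WT, 64.7, 22.7 and 44.2 in Het, and 56.3, 49 and 72.8 in KO and a log2 fold change ± SE of 0.80 ± 0.63, with overlapping groups for both. Has2, another hyaluronan synthase (30.8%), and Cd44, the hyaluronan receptor (37.3%), were the 2 of 35 genes below -1 in the ratio of Het replicate 3 (5.71%, against 7.22% of all genes), and were named after their values were seen.

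Several members are neighbours in the genome (GENCODE, GRCm38). Vcan (chromosome 13, 89655312 to 89742509, minus strand) lies 43.7 kb from Hapln1 (89539796 to 89611652, plus strand). Ncan (chromosome 8, 70093085 to 70120873, minus strand) lies 2.22 kb from Hapln4, Bcan (chromosome 3) 21.5 kb from Hapln2, and Acan (chromosome 7) 0.003 kb from Hapln3, so that each lectican has a link protein gene beside it. Per length, Vcan was at 1082 and Hapln1 at 2.6 normalized counts per kilobase, Ncan at 2737 and Hapln4 at 2.62, and Bcan at 477 and Hapln2 at 8.7. In the fourth pair the link protein gene was the higher one, with Acan at 3.6 and Hapln3 at 14.8. Dcn (chromosome 10, 97479609 to 97518143) and Lum (97565128 to 97572703) lie 47.0 kb apart on the plus strand, and both were near 2% of the other libraries in Het replicate 3. Ogn and Ecm2 (chromosome 13, 75.3 kb apart) were at 9.77% and 58.2%. Gpc3 and Gpc4 (chromosome X, 107 kb apart) were at 8.94% and 87% in that library, so the neighbouring glypicans differed in that library.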

How the data were processed

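Polyadenylated RNA was sequenced with its strand kept (TruSeq Stranded mRNA, per the labels' protocols). The deposited signal values are gene counts divided by size factors by the authors, as the deposited table's name and the values show. The submitters' processing notes name Salmon 0.11.2, R 3.6.0, DESeq2 1.19.11 and GRCm38, without saying what each did. For the authors' gene filter no rule is given. Low values did not come out as whole reads, so no count test was run.

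Values were taken as log2(value + 1) for genes with a mean of at least 10. limma 3.58.1 (R 4.3.3; lmFit, eBayes with trend) fitted 1 mean per genotype over all 9 libraries, two-sided, with Benjamini-Hochberg adjustment over 15069 genes and a threshold of 0.05. The script was tested on simulated data. Fold changes understate the change of low genes. Symbols (18783 of 18820 matched), coordinates and transcript lengths came from GENCODE M21 (GRCm38), and promoters from RefSeq (GRCm38.p6). With 3 against 3 libraries, the smallest exact permutation p is 0.1, so none is given.

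Members and lists were chosen with earlier results of these data known, and support nothing by themselves. Fold changes with errors are given for the 3 members of smallest p in each class in KO against WT, and 1 per class in the other comparisons. Values in every library are given for these, for the 5 members of highest mean in each class, and for the 3 lowest and 3 highest ratios of Het replicate 3. Postn, Fbln5 and Gpc3 were added after their values were seen, as were genes named in counts. Sex was read from Ddx3y and olfactory bulb RNA from Cdhr1 with earlier results of these data known.

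Deviations from group means of same-numbered libraries correlated at 0.45, 0.10 and 0.47 between KO and Het over all genes tested, at -0.01, 0.06 and -0.03 between KO and WT, and at -0.07, 0.25 and 0.03 between Het and WT. Only KO and Het met a limit of 0.1 in every same-numbered pair. KO replicate 1 with Het replicate 2 (0.15) and KO replicate 2 with Het replicate 1 (0.12) also met it. The other pairs of unlike number lay from -0.46 to -0.16. Replicates 1 of Het and KO were both female with olfactory bulb RNA, and replicates 3 both male without it. Pairing by number therefore cannot be told apart from these shared traits. The replicate number as a block, pseudocounts, filters, rescaling, covariates for sex and olfactory bulb RNA, and leaving out each library were tried as alternatives, 19 in all.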

Additional observations from a re-analysis of the deposited data

How the results depend on the processing

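In all 19 alternatives 0 members passed the adjusted threshold in any comparison (limma), the replicate block included. With that block, too, 0 members were called in KO against Het, where same-numbered libraries met the limit of 0.1, and it changed no other call. Of 23 gene results, 20 kept their sign throughout. With sex as a covariate, the KO against WT values of Thbs2, Gpc6 and Sdc2 turned to -0.019, -0.197 and -0.149, and the connective tissue median to -0.25 (0.28 otherwise). The neural median of KO against Het turned to 0.13 (0.01 otherwise). The sex effect came from Het and KO libraries alone, with Het replicate 3 included. Leaving out 1 library, the neural median ran from -0.046 (without WT replicate 1) to 0.21 (without WT replicate 3) in KO against WT, from -0.14 to 0.04 in Het against WT, and from -0.055 (without Het replicate 1) to 0.17 (without Het replicate 3) in KO against Het. The connective tissue median ran from 0.13 to 0.48, from -0.31 to 0.28 and from -0.02 to 0.79 (without KO replicate 3). With olfactory bulb RNA as a covariate it was 0.07 in KO against WT. Against the median of the WT libraries alone, Het replicate 3 stood at -0.98 for connective tissue, -0.48 for matricellular, -0.31 for surface and 0.11 for neural genes. The cause of these shifts was not tested. Depth limits the low genes, Hapln1, Acan, Hapln4, Mfap5 and Thbs4, where few reads lie behind a value.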
